A study of Mus musculus with 4 samples.

Results

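The genes described here encode the vacuolar proton pump (V-ATPase), the helpers of its assembly, and the ion channels and exchangers of endosomes and lysosomes. A list of 34 such genes was drawn up by function. A gene was kept where its normalised read count reached 10 in at least 2 of the 4 libraries, which left 32 genes of the 12463 that passed the same filter in a table of 23420. The osteoclast isoform Atp6v0d2 was left out of the list on purpose. The RNA came from tumour-infiltrating myeloid cells positive for CD11b and CD200R1, the receptor of CD200, sorted from orthotopic cutaneous squamous cell carcinomas of the FVB/N strain. The WT group (2 libraries) came from wild-type tumours with CD200. The EpiKO group (2 libraries) came from tumours with the genotype K14Cre;CD200fl/fl, in which a Cre driven by the keratin 14 promoter removes CD200 from epidermal cells and not from the myeloid cells measured. The labels do not give age or sex, nor say whether a library is 1 mouse or a pool. The comparison of EpiKO with WT describes how the RNA of the sorted cells differed between tumours with and without epidermal CD200.

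The V-ATPase is a rotary motor. Its cytosolic V1 sector splits ATP and turns a rotor that lets the membrane-bound V0 sector carry protons into the lumen, which acidifies lysosomes, endosomes and, in osteoclasts, the space above bone. Several subunits exist as isoforms that place the pump in different membranes. CLC exchangers bring in chloride as the counter-ion, while TRPML and TPC channels release calcium and sodium from the lumen. Macrophages depend on this machinery to digest what they engulf.

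Depth ranged from 15884132 to 21244158 reads in genes per library, and values below are normalised read counts, in which 1 read is worth 0.841 to 1.16. Macrophage markers were abundant in every library: the 10 markers summed to 451068 to 554576 in WT and 596037 to 611206 in EpiKO. Lyz2 was the largest part of this sum in each library, with 207009 and 157099 in WT and 325763 and 235159 in EpiKO. Of the 10 markers, 4 had a positive and 6 a negative log2 fold change, and limma called none. Both sort markers were detected. Itgam, which encodes CD11b, measured 26151 and 26738 in WT against 40692 and 30075 in EpiKO, and Cd200r1 318 and 293 against 1101 and 612. WT replicate 1 stood apart in keratinocyte markers. Its 9 keratinocyte markers summed to 4467, against 111 in WT replicate 2 and 51.0 to 62.4 in EpiKO. WT replicate 2 was highest in neutrophil markers, of which 8 were in the table. They summed to 1375 and 2816 in WT and 775 and 1605 in EpiKO. S100a9 measured 64.9 and 737 in WT against 38.8 and 117 in EpiKO, and Csf3r 1154 and 1215 against 514 and 1323. Of the 7 tested, 6 had a negative and 1 a positive log2 fold change. Fibroblast markers were present in every library: the 8 summed to 31582 and 21043 in WT and 18310 and 27356 in EpiKO. The 6 mast cell markers summed to 282 and 31.1 in WT and 112 and 19.8 in EpiKO. The 10 osteoclast markers, which include Atp6v0d2 and Ctsk, summed to 33705 to 45325 in WT and 6739 to 8299 in EpiKO, and all 8 that were tested had a negative log2 fold change. In WT most of that sum came from Acp5 (21138 and 14872 in WT, 2099 and 3864 in EpiKO) and Ctsk (10677 and 7022 in WT, 434 and 299 in EpiKO). Dcstamp at 313 to 717 and Itgb3 at 126 to 170 overlapped between groups. Calcr and Oscar, too low to be tested, reached at most 10.9 in any library. The 6 dendritic cell markers summed to 713 to 1368 in WT and 84.0 to 106 in EpiKO. Most of the WT sum came from Cd207 (1201 and 590, against 23.7 and 23.6 in EpiKO). Ccr7 measured 116 and 56.3 in WT against 32.3 and 35.9 in EpiKO, and Flt3 22.0 and 46.2 against 5.38 and 21.7. Neither Ccr7 nor Flt3 overlapped between groups, while Zbtb46 did at 19.3 to 26.7. Xcr1 and Clec9a reached at most 2.32 in any library. The part of these marker lists in the results below was not tested. In bulk RNA, fewer cells of a type and less RNA per cell cannot be told apart.

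None of the 32 genes passed the test between EpiKO and WT (limma, Benjamini-Hochberg adjusted p under 0.05 over all tested genes), where 0.947% of all tested genes did (0.417% higher and 0.53% lower in EpiKO). Their smallest adjusted p was 0.111, for Clcn5. At an unadjusted p under 0.05, 8 genes were lower in EpiKO and 3 higher, 11 in all, which is 34.4% of the 32 against 15.6% of all tested genes. By direction the share of all tested genes was 7.57% for EpiKO lower and 8.07% for EpiKO higher. The edgeR quasi-likelihood test on recovered reads also called none of the 32 at an adjusted p under 0.05, against 0.842% of all tested genes (0.385% higher and 0.457% lower). At an unadjusted p under 0.05 edgeR had 3 genes higher and 10 lower, 13 in all, beside 15.7% of all tested genes (8.11% higher and 7.59% lower). The 10 include Atp6v0e2, which passed the filter only through its WT values, so its direction was fixed in advance. DESeq2 called 4 (12.5% of the 32, against 6.85% of all tested genes): Atp6v0a1, Clcn5 and Dmxl2 as higher and Atp6v1d as lower in EpiKO. Of all tested genes DESeq2 called 3.73% as higher and 3.12% as lower. At an unadjusted p under 0.05 DESeq2 had 12 of the 32, 3 higher and 9 lower, beside 14.5% of all tested genes (7.79% higher and 6.68% lower).

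The difference between groups stayed within 1.5-fold in either direction for 28 of the 32 genes, and for 10260 of all 12463 tested genes. The median over the 32 was -0.11, with 23 negative and 9 positive, beside a median of -0.0021 over all tested genes. The 2 groups did not overlap for 21 genes, 15 lower and 6 higher in EpiKO, where 47.1% of all tested genes did not overlap (23.8% lower and 23.3% higher). Atp6v0e2 is among the 15, and because it passed the filter only through its WT values it had to be lower in EpiKO. WT replicate 1 exceeded WT replicate 2 in 27 of the 32 genes, which is 84.4%, against 51.6% of all tested genes. The median log2 fold change of the 32 was -0.020 without WT replicate 1 and -0.19 without WT replicate 2.

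**Figure D1:**
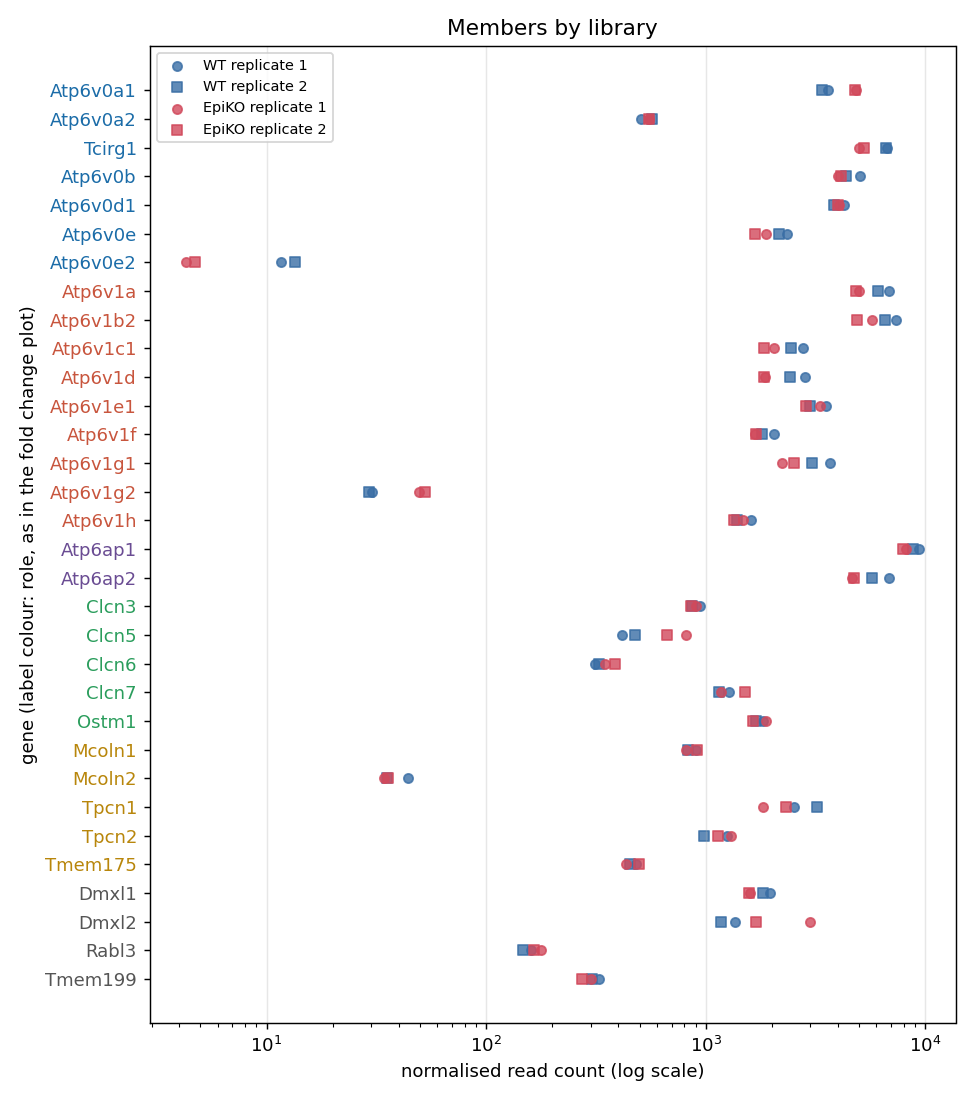
Normalised read count (horizontal, log scale) of the 32 genes (vertical) in each library, with blue for WT, red for EpiKO, circles for replicate 1 and squares for replicate 2. The 4 libraries of most genes lie close together, up to 9358 for Atp6ap1, while Atp6v0e2, Atp6v1g2 and Mcoln2 lie far below the rest.

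**Figure D2:**
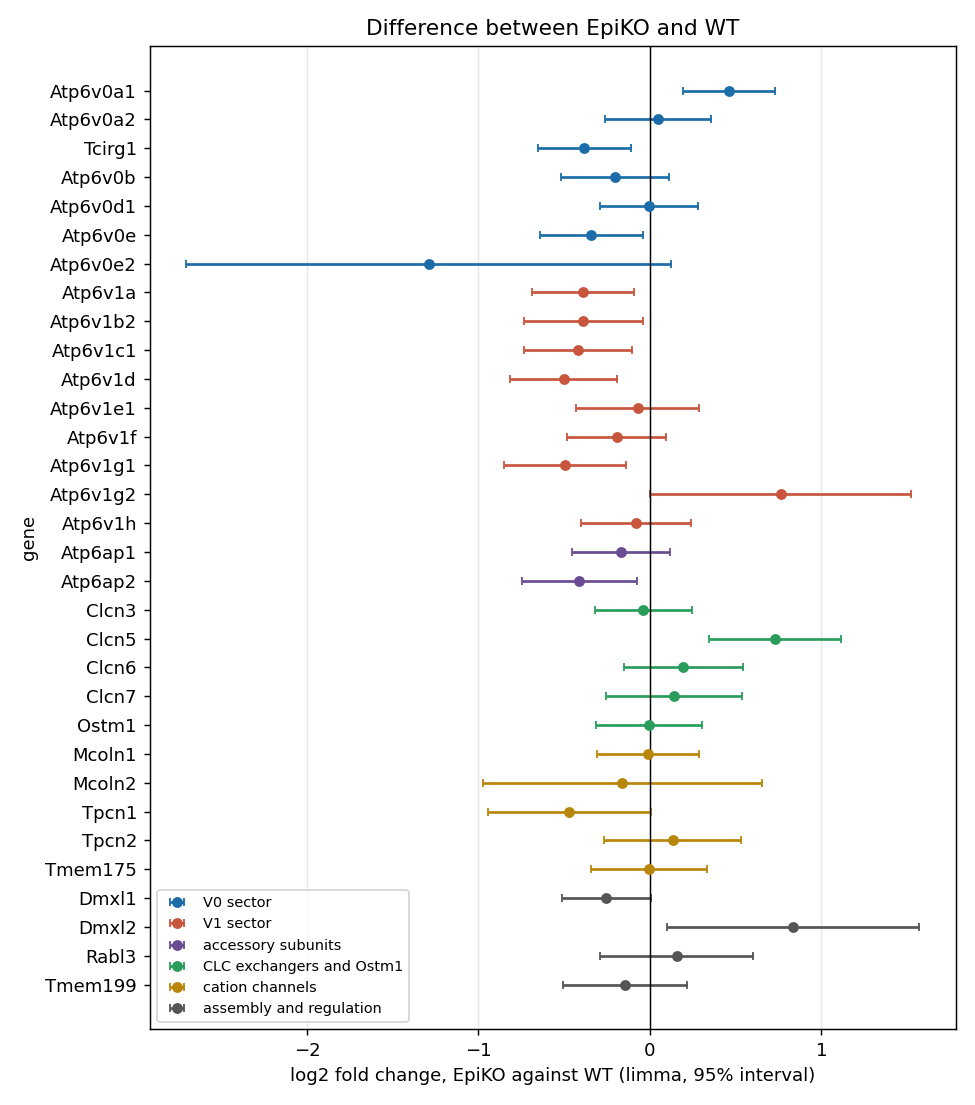
Log2 fold change of EpiKO against WT with its 95% interval by limma (horizontal) for the 32 genes (vertical), coloured by role, with 2 libraries per group. Clcn5 at 0.73 and Atp6v0a1 at 0.46 lie to the right of 0 and most V1 subunits lie to the left, between -0.50 and -0.072, with Atp6v1g2 at 0.76 as the exception.

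Promoters of lysosomal genes often hold the CLEAR element, a palindrome around CACGTG that the factors TFEB, TFE3 and MITF are known to bind. RefSeq promoters (GRCm38.p6, 250 bases before to 50 after a start site) were matched for 25 of the 32 genes, as 31 promoters. The 7 genes with no entry were Atp6v0a2, Atp6v1b2, Atp6v1c1, Atp6v1g1, Atp6v1h, Tpcn1 and Dmxl1. CACGTG, the same on both strands, was in 8 of the 31 promoters (25.8%), beside 7.15% of all 32851 promoters and 9.87% of the 11861 promoters of tested genes. GTCACGTG on either strand was in 5 (16.1%), beside 2.25% of all promoters and 4.08% of those of tested genes. TCACGTGA was in 6 (19.4%), beside 0.974% and 1.80%. Both longer words contain CACGTG and overlap each other, so these counts are not separate. Each of the 8 promoters belongs to another gene. A window of 30 bases is shown for each, since they are the part of the promoters that the genes share, with CACGTG in capitals. For Atp6v0b, Clcn6, Clcn7 and Mcoln1, whose promoters hold a pair of matches, the upstream match nearest the start site is shown.
Atp6v0b, chr4:117887330-117887359, minus strand: gggtcggcgcatCACGTGcgccggtcaggt
Atp6v0d1, chr8:105566050-105566079, minus strand: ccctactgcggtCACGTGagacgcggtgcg
Atp6v0e, chr17:26676387-26676416, plus strand: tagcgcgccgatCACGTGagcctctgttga
Atp6v1a, chr16:44139373-44139402, minus strand: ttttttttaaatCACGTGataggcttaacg
Clcn6, chr4:148038821-148038850, minus strand: cccggggccagtCACGTGaggcgcggatcc
Clcn7, chr17:25133364-25133393, plus strand: tccgtcgtcagtCACGTGggcaccgatgat
Mcoln1, chr8:3500462-3500491, plus strand: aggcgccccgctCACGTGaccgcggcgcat
Mcoln2, chr3:146150090-146150119, plus strand: tccctgagctcaCACGTGgaccccattctg

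The 8 genes with this word did not share a direction. Their log2 fold changes were -0.39 for Atp6v1a, -0.34 for Atp6v0e, -0.20 for Atp6v0b, -0.16 for Mcoln2, -0.012 for Mcoln1, -0.0037 for Atp6v0d1, 0.14 for Clcn7 and 0.19 for Clcn6. None was called. The promoters of Atp6v0a1, Tcirg1, Clcn5, Atp6v1d and Dmxl2 held no CACGTG in the window.

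Most V1 genes were at lower values in EpiKO without passing the test. Of the 9 genes of the sector 8 had a negative log2 fold change, and 6 of them had both EpiKO libraries below both WT libraries. Among all tested genes 23.8% had both EpiKO libraries below both WT libraries. In all 9 V1 genes WT replicate 1 exceeded WT replicate 2, against 51.6% of all tested genes. Atp6v1a, the catalytic subunit A that binds and splits ATP, measured 6821 and 6123 in WT against 5011 and 4853 in EpiKO. Its partner in the catalytic ring, subunit B2 (Atp6v1b2), was at 7346 and 6570 against 5740 and 4912. Both genes were lower in each EpiKO library than in either WT library, with log2 fold changes of -0.39 (SE 0.116, limma adjusted p = 0.206) and -0.39 (SE 0.136, limma adjusted p = 0.269).

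Atp6v1d, the central rotor shaft, measured 2842 and 2417 in WT against 1857 and 1842 in EpiKO. This was the most negative log2 fold change of the sector, at -0.50 (SE 0.123, 95% interval -0.82 to -0.19, limma adjusted p = 0.148), and the only V1 gene that DESeq2 called (adjusted p = 0.0470 by DESeq2). The gene lies on the minus strand of chromosome 12 of mm10, from 78840725 to 78861638. Atp6v1g1, part of the peripheral stalks that hold the ring still, measured 3667 and 3061 in WT against 2234 and 2524 in EpiKO. Its log2 fold change was -0.50 (SE 0.140, limma adjusted p = 0.189), with no overlap of the groups, and 19.2% of the 50-base words of its transcript also stand in transcripts of other genes, so its count is uncertain. Atp6v1c1, whose subunit C detaches when the sectors come apart, was at 2785 and 2443 against 2055 and 1850, a log2 fold change estimated at -0.42 (SE 0.125, limma adjusted p = 0.205).

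The other V1 genes differed less. Atp6v1f measured 2054 and 1812 in WT against 1686 and 1691 in EpiKO, Atp6v1e1 3517 and 2982 against 3315 and 2862, and Atp6v1h 1604 and 1388 against 1480 and 1341. Atp6v1f, a small rotor subunit with 12.6% of its transcript words in another gene, had a log2 fold change of -0.19 (95% interval -0.48 to 0.096), Atp6v1e1 of the stalks one of -0.072 (95% interval -0.43 to 0.29) and Atp6v1h, a regulatory subunit, one of -0.083 (95% interval -0.40 to 0.24). The groups overlapped for Atp6v1e1 and Atp6v1h and not for Atp6v1f. Atp6v1g2, a G isoform known from neurons, went the other way at low values, with 30.1 and 29.4 in WT against 49.5 and 52.9 in EpiKO (log2 fold change 0.76, SE 0.300, limma adjusted p = 0.319). It shares exon sequence with Nfkbil1 on the other strand, and without a stated strand setting the reads of such a pair cannot be told apart. The same holds for Atp6v1e1 with Slc25a18, Atp6v1h with Rgs20, Atp6v0a2 with 4930404A12Rik, Atp6v0b with Gm12841 and Ostm1 with Gm15200.

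In the V0 sector the main isoforms of subunit a had opposite signs, without a call by limma. This subunit forms the proton half-channels and carries the sorting signals of the pump. Tcirg1, the a3 isoform of lysosomes and of the osteoclast ruffled border, measured 6723 and 6637 in WT against 5009 and 5246 in EpiKO. Atp6v0a1, the a1 isoform, measured 3597 and 3400 in WT against 4839 and 4787 in EpiKO. The groups did not overlap for either gene, and the directions were opposite. The log2 fold change was -0.38 for Tcirg1 (SE 0.107, 95% interval -0.65 to -0.11, limma adjusted p = 0.187) and 0.46 for Atp6v0a1 (SE 0.106, 95% interval 0.19 to 0.73, limma adjusted p = 0.134). DESeq2 called Atp6v0a1 (adjusted p = 0.0220 by DESeq2) but not Tcirg1 (adjusted p = 0.0772 by DESeq2). Atp6v0a2, the a2 isoform known from the Golgi and early endosomes, was at 507 and 567 against 553 and 555, with overlapping groups and a log2 fold change of 0.047 (95% interval -0.26 to 0.35). Atp6v0a1 lies on the plus strand of chromosome 11 of mm10 from 101009452 to 101063719, and Tcirg1 on the minus strand of chromosome 19 from 3896050 to 3907133.

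Dividing by the merged exon length allowed the isoforms to be set against each other. Tcirg1 made up 70.0% and 70.5% of the summed level per kb of subunit a in WT, and 57.0% and 58.4% in EpiKO. Atp6v0a1 made up 26.3% and 25.4% in WT and 38.7% and 37.4% in EpiKO. The level of Tcirg1 per kb was 2.66 and 2.78 times that of Atp6v0a1 in WT, and 1.47 and 1.56 times in EpiKO, so a3 remained the more abundant form in every library. The mean share of Tcirg1 was 12.6 percentage points apart between groups, more than the SD of 0.345 (WT) and 0.946 (EpiKO) between the 2 libraries of a group. An exact two-sided permutation test of 2 libraries against 2 gave p = 0.333, the smallest it can give.

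Subunit d couples the rotor of V1 to that of V0 and has a pair of isoforms. Atp6v0d1, the widespread form, measured 4249 and 3838 in WT against 4061 and 3996 in EpiKO, an overlapping set of values with a log2 fold change of -0.0037 (95% interval -0.29 to 0.28). Atp6v0d2, the osteoclast form outside the list, measured 2694 and 2443 in WT against 324 and 178 in EpiKO so that its log2 value fell by 3.41 (SE 0.296, limma adjusted p = 0.0336). This call was lost without WT replicate 1 (limma adjusted p = 0.165), without WT replicate 2 (0.189) and without EpiKO replicate 2 (0.0539). Atp6v0d2 made up 29.5% and 29.6% of the summed level per kb of subunit d in WT and 5.004% and 2.85% in EpiKO. The summed level per kb of both isoforms was 3362 and 3040 in WT and 2384 and 2294 in EpiKO.

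The remaining V0 genes were lower or near level in EpiKO without a call. Atp6v0b, which encodes the c'' proteolipid of the proton-carrying ring, measured 5056 and 4351 in WT against 4004 and 4145 in EpiKO (log2 fold change -0.20, 95% interval -0.52 to 0.11). Without WT replicate 1 the log2 fold change of Atp6v0b was -0.095, and without WT replicate 2 it was -0.31. Atp6v0e, a small membrane subunit, was at 2353 and 2149 against 1877 and 1675, with no overlap (log2 fold change -0.34, SE 0.118, limma adjusted p = 0.262). Its relative Atp6v0e2 was just inside the filter at 11.6 and 13.4 in WT and stood at 4.31 and 4.73 in EpiKO. Its log2 fold change was -1.29 (SE 0.556). It supplied at most 0.966% of the summed level per kb of subunit e in any library.

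Both listed genes below the filter had almost no reads. Atp6v0c, which encodes the c proteolipid and is needed by every cell with this pump, was listed at 0 in 3 libraries and at 0.945, which is 1 read, in EpiKO replicate 2. Of the 50-base words of its transcript, 32.4% also stand in transcripts of its pseudogenes Atp6v0c-ps2 and Atp6v0c-ps1, and the other words stand in no other gene. How the authors counted such shared reads is not given in the sources used here. Why the count of Atp6v0c was near 0 was not tested. Mcoln3, a TRPML channel, was at 3.48 in WT replicate 1, at 0.945 in EpiKO replicate 2 and at 0 elsewhere. The isoforms known from kidney, epididymis or testis were as low: Atp6v0a4 reached at most 8.11 and Atp6v1b1 at most 8.61, while Atp6v1c2 had 16.2 in WT replicate 1, the library with high keratinocyte markers, and 0 in the others. Atp6v1e2, Atp6v1g3 and Atp6ap1l had no read in any library, where a count of 3 reads would be a value of 2.52 to 3.48.

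The accessory subunits were the genes with some of the highest levels. Atp6ap1, known as Ac45, had a mean level per kb of 2833, the highest of the 32 genes over the 4 libraries though below Atp6v1g1 in WT replicate 1 (3093 against 3231), and values of 9358 and 8791 in WT against 8197 and 7942 in EpiKO (log2 fold change -0.17, 95% interval -0.45 to 0.12). Atp6ap2, the prorenin receptor, measured 6839 and 5710 in WT against 4646 and 4754 in EpiKO (log2 fold change -0.41, SE 0.132, limma adjusted p = 0.237). The groups did not overlap for either gene. Below Atp6ap1 in mean level per kb came Atp6v1g1 at 2530, Atp6v0d1 at 2251, Atp6v0b at 2140 and Atp6ap2 at 2096, whose ranges over the 4 libraries overlapped. The channels and exchangers were far lower, with means per kb of at most 293 (Tpcn1), and their order differed between libraries: in both EpiKO libraries Clcn7 was above Tpcn1.

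Summed per kb, the 9 V1 genes came to 9824 and 8494 in WT against 7214 and 7129 in EpiKO. The 7 V0 genes came to 7558 and 6891 against 6633 and 6655, and the 2 accessory genes to 5705 and 5086 against 4484 and 4440. The V0 sum leaves out Atp6v0c, below the filter, and Atp6v0d2, outside the list. Per kb Atp6v0d2 was at 992 and 899 in WT against 119 and 65.4 in EpiKO. For each of these 3 sums the EpiKO libraries lay below the WT libraries, and each was higher in WT replicate 1 than in WT replicate 2. The 5 CLC genes including Ostm1 summed to 640 and 599 in WT against 667 and 686 in EpiKO. The 5 cation channels came to 751 and 768 in WT against 655 and 708 in EpiKO, so this sum was also lower in both EpiKO libraries. The 4 assembly genes came to 389 and 356 in WT against 484 and 370 in EpiKO, with overlapping groups.

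**Figure D3:**
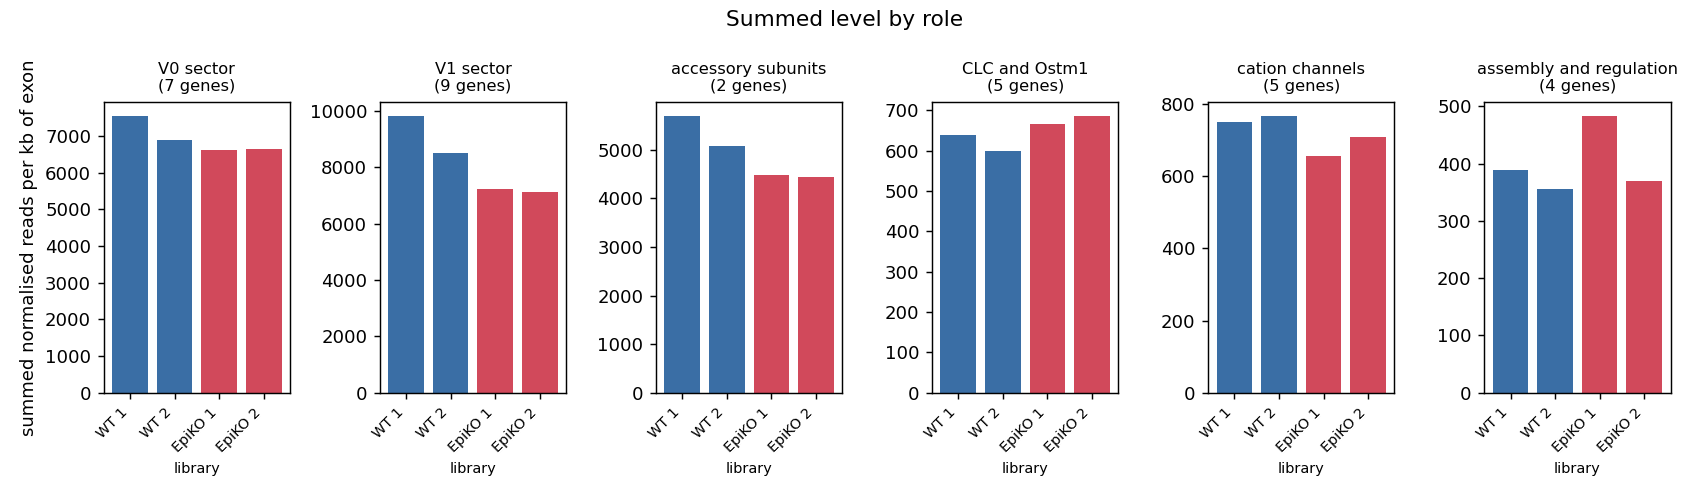
Summed normalised reads per kb of exon (vertical, from 0, own scale in each panel) of the genes of each role, with 1 bar per library, blue for WT and red for EpiKO. The V1 bars are at 9824 and 8494 for WT and 7214 and 7129 for EpiKO, while the CLC sum is slightly higher in EpiKO. The cation channel sum is lower in both EpiKO libraries. The V0 sum leaves out Atp6v0d2 and Atp6v0c.

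Among the chloride carriers the difference was largest for Clcn5. This exchanger of endosomes is best known from kidney tubule cells. It measured 415 and 477 in WT against 811 and 669 in EpiKO, 1.66 times as high on average. Both EpiKO libraries were above both WT libraries, with a log2 fold change estimated at 0.73 (SE 0.151, 95% interval 0.34 to 1.11). It missed the threshold by limma (adjusted p = 0.111) and by edgeR (adjusted p = 0.113), and passed by DESeq2 (adjusted p = 0.0183). Without 1 library the limma log2 fold change was between 0.59 and 0.86. Clcn5 lies on the minus strand of chromosome X of mm10, from 7153810 to 7319358. No other annotated gene overlaps its exons.

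The other CLC genes were near level. Clcn7, the lysosomal exchanger, measured 1280 and 1145 in WT against 1180 and 1510 in EpiKO (95% interval of the log2 fold change -0.26 to 0.54). Its partner Ostm1, without which the exchanger is unstable, was at 1828 and 1696 against 1883 and 1637 (95% interval -0.31 to 0.30). Clcn3, an endosomal exchanger that ranged from 857 to 947, had a log2 fold change of -0.038 (95% interval -0.32 to 0.24) and Clcn6, of late endosomes, with 313 to 387, one of 0.19 (95% interval -0.15 to 0.54). Of the summed level per kb of the 5 CLC exchangers Clcn3, Clcn4-2, Clcn5, Clcn6 and Clcn7, of which Clcn4-2 was not listed, Clcn7 held 39.3% to 47.3% in the 4 libraries. The share of Clcn5 was 6.51% and 7.96% in WT and 12.5% and 9.68% in EpiKO.

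Of the cation channels none was called. Where 47.1% of all tested genes did not overlap, 4 of the 5 channels that passed the filter had overlapping groups. Tpcn1, a sodium and calcium channel of endolysosomes, was the exception, with 2523 and 3231 in WT against 1820 and 2333 in EpiKO. Its log2 fold change was -0.47 (SE 0.187, limma adjusted p = 0.325), and it ranged from -0.65 to -0.29 without 1 library. Its relative Tpcn2 was at 1253 and 987 against 1304 and 1140. Tpcn1 held 55.6% and 67.0% of the summed level per kb of both TPC channels in WT and 46.4% and 56.0% in EpiKO, so the shares overlapped between groups. Mcoln1, the main calcium release channel of lysosomes, measured 903 and 836 in WT against 815 and 910 in EpiKO (95% interval of the log2 fold change -0.31 to 0.29). It held at least 89.2% of the summed level per kb of the 3 TRPML channels in every library. Mcoln2 was at 34.4 to 44.0, and Tmem175, a potassium and proton channel of lysosomes, at 434 to 499. Of the 50-base words of the Tmem175 transcript, 52.2% also lie in transcripts of Dgkq on the other strand, so its count is uncertain.

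The genes of assembly and regulation were split. Dmxl1 and Dmxl2 encode alternative forms of rabconnectin-3 alpha, a large scaffold that helps join V1 to V0. Dmxl2 measured 1364 and 1177 in WT against 2993 and 1702 in EpiKO, and Dmxl1 1955 and 1832 against 1601 and 1574. Neither gene had overlapping groups. The log2 fold change was 0.83 for Dmxl2 (SE 0.285, limma adjusted p = 0.266, 0.0437 by DESeq2) and -0.25 for Dmxl1 (SE 0.103, limma adjusted p = 0.334). The value for Dmxl2 rests in part on EpiKO replicate 1: it was 0.43 without that library and 1.24 without EpiKO replicate 2. Dmxl2 held 53.5% and 51.5% of their summed level per kb in WT and 75.5% and 64.1% in EpiKO. Tmem199, an assembly factor of the pump in the endoplasmic reticulum, had a log2 fold change of -0.15 (95% interval -0.51 to 0.22), and the small GTPase-like gene Rabl3 one of 0.16 (95% interval -0.29 to 0.60).

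**Figure D4:**
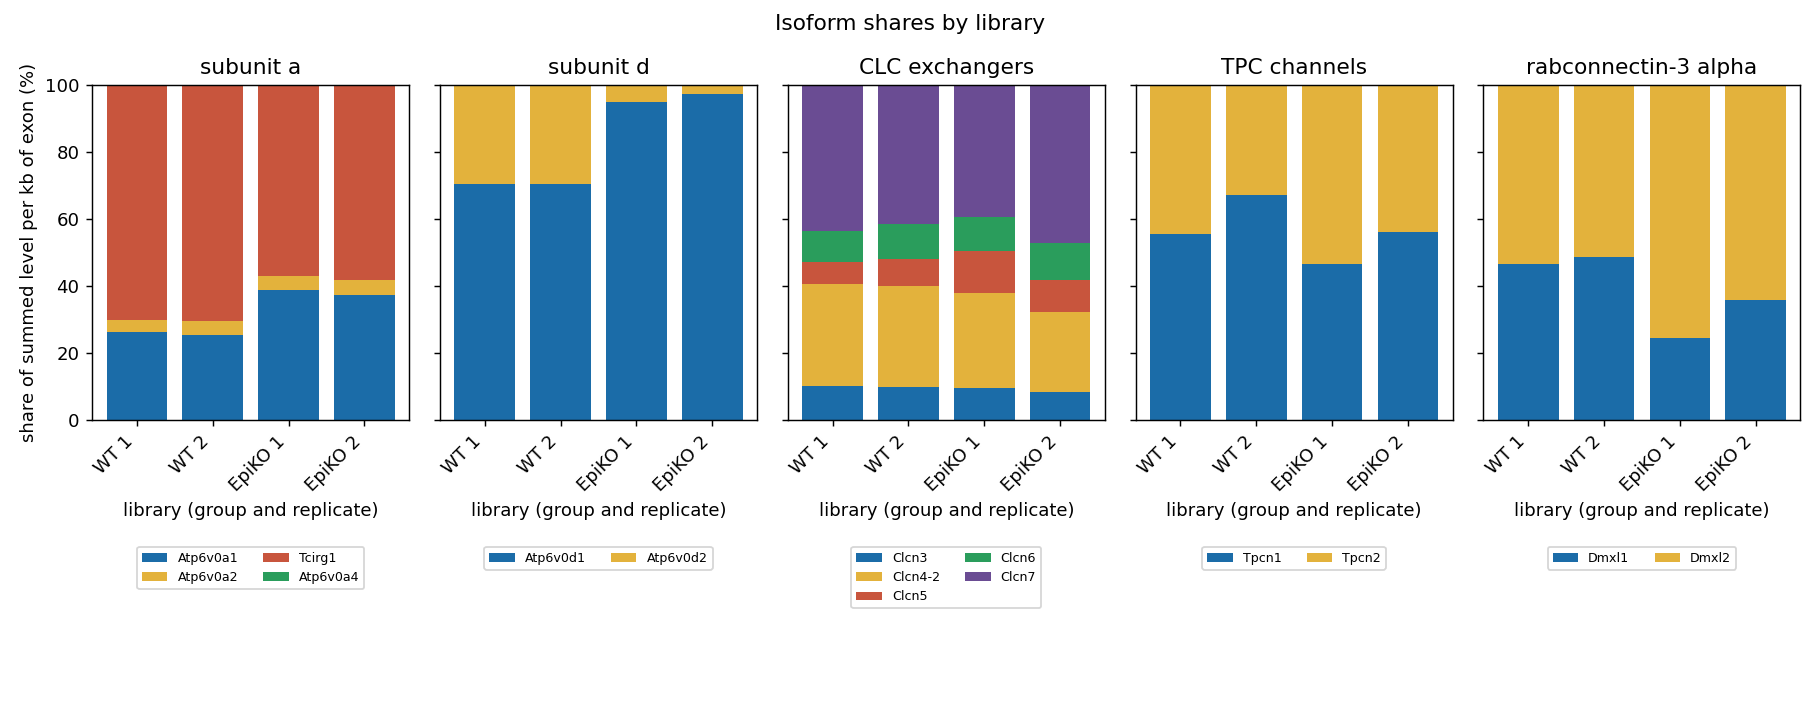
Share of each gene in the summed level per kb of exon of its family (vertical, percent) in each of the 4 libraries (horizontal). The share of Tcirg1 is near 70.3% in WT and 57.7% in EpiKO on average, that of Atp6v0d2 is near 29.5% in WT and 3.93% in EpiKO, and Dmxl2 takes a larger share in both EpiKO libraries.

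Transcription factors of lysosomal genes, MITF and its relatives among them, were measured as a list of 5 genes, none of which limma called. Tfec, a myeloid member of the family, measured 576 and 441 in WT against 1298 and 926 in EpiKO (log2 fold change 1.12, SE 0.221, limma adjusted p = 0.106, 0.000858 by DESeq2). Mitf, which osteoclasts need, measured 1227 and 1236 in WT against 965 and 777 in EpiKO (log2 fold change -0.51, SE 0.139, limma adjusted p = 0.180). Neither had overlapping groups, and they differed in direction. The log2 fold change was -0.12 for Tfeb (SE 0.178) and 0.011 for Tfe3 (SE 0.107), both with overlapping groups. For Zkscan3, the remaining gene of the list, it was 0.17 (SE 0.117), without overlap of the groups.

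Further genes around the pump were taken from 7 lists with 92 entries, of which 83 were tested. Of these limma called 2 as lower in EpiKO and none as higher, beside 0.53% and 0.417% of all tested genes. Atp6v0d2, above, was 1 of the 2. The other was Slc9b2, a sodium and proton exchanger, with 1074 and 1257 in WT against 51.7 and 35.0 in EpiKO (log2 fold change -4.74, SE 0.236, limma adjusted p = 0.0329), out of 26 tested endolysosomal channels, exchangers and transporters. The call of Slc9b2 was lost without WT replicate 1 (limma adjusted p = 0.130) and without WT replicate 2 (0.162). In the same list Slc36a1, a proton-coupled amino acid transporter, measured 1093 and 1215 in WT against 1804 and 1808 in EpiKO (limma adjusted p = 0.0753), and Slc15a4, a proton-coupled histidine and peptide transporter, 1522 and 1435 against 853 and 1064 (limma adjusted p = 0.128). DESeq2 called 5 of the 83 tested genes of the 7 lists, where it called 6.85% of all tested genes. The 5 were Atp6v0d2, Slc9b2, Slc36a1, Slc15a4 and Tfec.

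Limma called none of the 14 tested genes of V-ATPase assembly and regulation, with Wdr7, the beta form of rabconnectin-3, at a log2 fold change estimated at 0.19 (SE 0.110) and the assembly factor Vma21 at -0.19 (SE 0.118). None of 17 genes of nutrient sensing at the lysosome, where the pump meets the mTORC1 kinase, was called. The mTORC1 subunit gene Rptor measured 1409 and 1586 in WT against 1003 and 1180 in EpiKO (limma adjusted p = 0.198), and Fnip1, a partner of folliculin, 2225 and 1615 against 1124 and 1327 (limma adjusted p = 0.210). A list of 7 phosphoinositide lipid genes held no call. Pikfyve, the kinase of PI(3,5)P2, a lipid that opens TRPML and TPC channels, had a log2 fold change of 0.19 (SE 0.122). Tmem55b of the same list was at 0.18 (SE 0.118). Of 13 lysosomal membrane proteins none was called. Laptm4b measured 370 and 281 in WT against 453 and 697 in EpiKO (log2 fold change 0.80, SE 0.260), and Tmem192 had a log2 fold change estimated at -0.37 (SE 0.127). The median log2 fold change of this last list was 0.032, with 8 positive and 5 negative.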

How the data were processed

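The submitters' processing notes name build mm10 and 4 tools, DESeq2 (no version), featureCounts 1.5.0-p3, STAR 2.5.2b and bcl2fastq 2.17. Which annotation and strand option the counting used, and how multi-mapped reads were handled, is not given in the sources used here. What the authors deposited is a scaled signal, equal to read counts over a library-wide factor, since 100% of values are whole reads (tolerance 1e-06) after division by the smallest step of their library. No label says that the replicates are separate mice, so the p-values reflect the spread of these libraries alone, possibly a technical spread.

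Genes that reached 10 in 2 or more libraries were tested on log2(value + 1) with limma 3.58.1 (R 4.3.3; trend, robust moderation, two-sided, Benjamini-Hochberg adjustment over 12463 genes). Fold changes on this scale understate the change of low genes. Recovered reads were tested with edgeR 4.0.16 and DESeq2 1.42.0. The 3 tests were first checked on simulated counts with known changes. Levels per kb use merged exon lengths of GENCODE M21 (mm10). Intervals are 95% intervals by limma. All 34 listed genes are named. From other lists, every called gene or the 2 with the smallest p are named. Tfeb, Tfe3, Zkscan3, Slc36a1 and Slc15a4 were added after their values were seen. Members and lists were chosen with earlier results of these data known. All 4 libraries entered the tests, without covariates.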

Additional observations from a re-analysis of the deposited data

How the results depend on the processing

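No paired analysis was possible because the labels give no replicate numbers that the groups share. The absence of calls among the 32 genes held under every alternative except DESeq2, which called 3 as higher and 1 as lower. The fits without 1 library and without the trend called few of all tested genes, so they say little about this absence. The count of all called genes, 118, became 31 without the trend, 854 by DESeq2, 428 at an adjusted p under 0.1, and 0 to 4 without 1 library. The 2 calls in the other lists became 1 without the trend, 5 by DESeq2, and 0 to 2 without 1 library. The median log2 fold change of the 32 genes, -0.11, ranged from -0.19 to -0.020 without 1 library, and the cause was not tested. Each such fit takes the spread of the group with 1 remaining library from the other.

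Shares of isoforms depended on the length used, by construction. Without division by length, or per kb of the longest coding sequence, the EpiKO minus WT difference in percentage points was 13.2 under both for Atp6v0a1 (12.2 as reported), -13.5 under both for Tcirg1, -33.0 and -33.1 for Atp6v0d2 (-25.6 as reported), and 5.51 and 5.57 for Clcn5 (3.84 as reported). Without 1 library the differences were 11.6 to 12.8 for Atp6v0a1, -13.2 to -11.9 for Tcirg1 and -26.7 to -24.5 for Atp6v0d2. They were 2.44 to 5.23 for Clcn5, -3.15 to 4.85 for Clcn7, -15.8 to -4.36 for Tpcn1 and 11.6 to 23.04 for Dmxl2.

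Of 413 log2 fold changes of single members under the alternatives, 18 changed sign, all in 10 members near 0. With quantile normalization Atp6v0d1 was at 0.012 and Mcoln1 at 0.0093. Without 1 library the log2 fold change ranged from -0.034 to 0.13 for Atp6v0a2, -0.077 to 0.070 for Atp6v0d1, -0.19 to 0.047 for Atp6v1e1, -0.19 to 0.022 for Atp6v1h, -0.10 to 0.025 for Clcn3, -0.037 to 0.32 for Clcn7, -0.11 to 0.097 for Ostm1, -0.092 to 0.067 for Mcoln1, -0.040 to 0.30 for Tpcn2 and -0.11 to 0.095 for Tmem175. The sign held but the size moved by over 1.5 times without 1 library for Atp6v0b (-0.31 to -0.095), Atp6v1f (-0.28 to -0.10), Clcn6 (0.11 to 0.27), Mcoln2 (-0.32 to -0.0052), Rabl3 (0.099 to 0.21), Tmem199 (-0.21 to -0.080), Tpcn1 and Dmxl2. The SE of the log2 fold change was largest for the 3 members with the lowest values, at 0.556 for Atp6v0e2, 0.319 for Mcoln2 and 0.300 for Atp6v1g2, and was at most 0.285, for Dmxl2, among the others.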
